A study of Mus musculus with 18 samples.

Results

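The platelet-derived growth factor (PDGF) genes examined here are 2 receptors, Pdgfra and Pdgfrb, and 4 ligands, Pdgfa, Pdgfb, Pdgfc and Pdgfd, which make up 6 of the 46078 genes in the RNA count table. They were chosen by gene symbol and not by any measured value. With them were taken all 84 of the 111664 ATAC-seq peaks that lay within 50000 bp of 1 of the 6 genes, and all 84 passed the filter on low counts. The tumours were mouse small cell lung cancer (SCLC), a lung tumour of neuroendocrine character. In all 3 genotypes Adenovirus-Cre was delivered to the lungs of mice aged 8 weeks, and the animals were aged for 28 weeks more. The control genotype, TKO, carried Rb1L/L; Rbl1L/L; p53L/L as the labels write it, while the study's text names Rbl2 in place of Rbl1. The CARM1 knockout (TKO;Carm1KO) carried the same alleles and Carm1L/L, so that Cre also removed CARM1, an arginine methyltransferase. The NFIB mutant carried the TKO alleles and NfibR388K, a knock-in present in every cell of the animal that changes the NFIB arginine methylated by CARM1 to lysine. Each genotype had 3 RNA-seq and 3 ATAC-seq libraries, from tumours of 3 independent animals by the labels. The mice were of mixed background, Cre entered whichever lung cells took up the virus, and the sources differ on whether sorted tumour cells, tumour biopsies or derived cell lines were sequenced. The table columns were headed C, KO and N, letters the labels do not use, and following the study's text C was taken to be TKO, KO the CARM1 knockout and N the NFIB mutant.

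PDGF receptors are tyrosine kinases of the cell surface that pair up when a ligand dimer binds them, and they then signal through the RAS, PI3 kinase, phospholipase C gamma and STAT pathways. PDGF-A and PDGF-B are secreted in active form, whereas PDGF-C and PDGF-D carry a CUB domain that proteases must cut off before they can bind. The alpha receptor binds PDGF-A, PDGF-B and PDGF-C, and the beta receptor binds PDGF-B and PDGF-D. In the lung, epithelium is a known source of PDGF-A, and fibroblasts, pericytes and smooth muscle cells are the usual carriers of the receptors.

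RNA libraries held 15848866 to 20915057 counts in genes, so that 3 counts were 0.143 to 0.189 of every 1000000, and ATAC libraries held 26917178 to 47653979 counts in peaks. Levels are given in CPM, counts scaled to 1000000 of the TMM-adjusted library size, so that they share the scaling of the tests. The 10 neuroendocrine marker genes summed to 1625 to 3917 CPM in TKO but to 33.5 to 51.2 CPM in the NFIB mutant libraries. In the CARM1 knockout the sums were 59.2, 188 and 1803 CPM, and replicate 3 stood apart from the other two. The SCLC label was thus not borne out by these markers in 5 of the 6 mutant libraries, where the sum was 33.5 to 188 CPM. Carm1 itself stood at 97.6, 103 and 44.5 CPM in TKO and at 63.3, 79.0 and 50.7 CPM in the CARM1 knockout, and the groups overlapped. Nfib stood at 420 to 579 CPM in TKO, at 74.4 to 216 CPM in the CARM1 knockout and at 83.2 to 105 CPM in the NFIB mutant. It was lower in both mutants, at log2 differences of -2.06 and -2.49 (edgeR adjusted p = 0.0080 and 0.00325). The Carm1 count includes exons outside the deleted part, and a whole-gene Nfib count does not show whether the codon was changed, so neither count checked its label. Library names carried replicate numbers that did not pair the animals across genotypes.

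The sequences at the starts of 3 of these genes are shown first, because they lie inside ATAC peaks that differed in their response. Each run is the RefSeq promoter, from 250 bases before to 50 bases after a start that RefSeq gives in build GRCm38.p6. It is written 5′ to 3′ on the strand of the gene, and capitals mark CG dinucleotides. The gene positions given below follow GENCODE, and the printed Pdgfd and Pdgfa runs do not cover the gene starts given there. The first pair lies in peaks that rose in both mutants, and the last lies in a peak that was not called.
Pdgfra promoter, GRCm38.p6 chr5:75152001-75152300, plus strand: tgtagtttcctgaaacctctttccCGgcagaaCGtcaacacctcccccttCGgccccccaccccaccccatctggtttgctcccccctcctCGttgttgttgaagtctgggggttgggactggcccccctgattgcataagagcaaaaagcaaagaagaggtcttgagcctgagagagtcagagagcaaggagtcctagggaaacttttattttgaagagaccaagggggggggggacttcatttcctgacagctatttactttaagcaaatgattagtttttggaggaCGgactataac
Pdgfd promoter, GRCm38.p6 chr9:6168236-6168535, plus strand: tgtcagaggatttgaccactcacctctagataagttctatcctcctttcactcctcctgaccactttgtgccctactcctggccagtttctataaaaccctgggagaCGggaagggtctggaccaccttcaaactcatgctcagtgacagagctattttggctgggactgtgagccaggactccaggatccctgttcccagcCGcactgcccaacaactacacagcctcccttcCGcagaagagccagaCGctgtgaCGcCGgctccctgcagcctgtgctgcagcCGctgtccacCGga
Pdgfa promoter, GRCm38.p6 chr5:138994895-138995194, minus strand: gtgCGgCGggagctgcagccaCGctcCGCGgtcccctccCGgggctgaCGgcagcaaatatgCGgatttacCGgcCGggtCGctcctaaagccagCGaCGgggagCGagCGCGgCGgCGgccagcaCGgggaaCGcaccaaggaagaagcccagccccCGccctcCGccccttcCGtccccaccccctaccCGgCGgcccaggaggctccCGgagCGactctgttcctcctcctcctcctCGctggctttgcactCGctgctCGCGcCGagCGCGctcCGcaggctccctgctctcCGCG

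The Pdgfra run held 5 CG dinucleotides at 51.0% G and C, and the Pdgfd run held 8 at 56.7%. The Pdgfa run held 37 CG dinucleotides at 73.3%, more than 94.4% of the promoters in the same table. Over all 32851 promoters the median was 7 CG dinucleotides, with quartiles of 3 and 20. A second Pdgfa promoter in the table held 24 and the Pdgfc promoter held 8, as many as the Pdgfd run. Both of these promoters lay in peaks that were not called in either mutant. The table had promoters for 4 of the 6 genes, and Pdgfb and Pdgfrb are named only.

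Both receptors were higher in both mutants. Pdgfra, the alpha receptor, is gene ENSMUSG00000029231 at chr5:75152292-75198215 on the plus strand of mm10. It was measured at 8.59, 8.996 and 22.6 CPM in the 3 TKO libraries. The CARM1 knockout libraries held 527, 249 and 229 CPM and the NFIB mutant libraries held 1109, 484 and 366 CPM. All 6 mutant libraries lay above every TKO library. The share of all genes that separate in this way was not counted, and 20.5% and 22.3% of all genes tested were called higher. The means were 13.4 ± 7.95, 335 ± 167 and 653 ± 399 CPM (SD, n = 3 each). Pdgfra rose by 4.64 on the log2 scale in the CARM1 knockout (SE 0.66, 25.02-fold, edgeR adjusted p = 0.00256) and by 5.61 in the NFIB mutant (SE 0.69, 48.8-fold, edgeR adjusted p = 0.00121). TKO replicate 3 was the highest of its group, and without it the differences were 5.29 and 6.24. Without NFIB mutant replicate 1 the latter difference was 4.998. In such bulk samples more cells of a type and more RNA per cell cannot be told apart.

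Pdgfrb, the beta receptor, moved in the same direction. It is gene ENSMUSG00000024620 at chr18:61045150-61085061 on the plus strand. TKO libraries held 5.42, 10.2 and 2.83 CPM, CARM1 knockout libraries 643, 431 and 922 CPM, and NFIB mutant libraries 304, 631 and 190 CPM. Again all 6 mutant libraries lay above every TKO library. The means were 6.14 ± 3.72, 665 ± 247 and 375 ± 229 CPM (SD, n = 3 each). The differences were 6.76 on the log2 scale in the CARM1 knockout (SE 0.73, 108-fold, edgeR adjusted p = 0.00105) and 5.93 in the NFIB mutant (SE 0.71, 60.9-fold, edgeR adjusted p = 0.00106). Without NFIB mutant replicate 2 the latter was 5.33.

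Of the ligands, Pdgfc and Pdgfd passed the test in both mutants, and Pdgfa and Pdgfb in neither. Here a call means an edgeR adjusted p under 0.1 together with a log2 difference of 0.8 or more in size. By this rule 4 of the 6 PDGF genes were called higher and 0 lower in each mutant. Among all 15514 genes tested, 20.5% were called higher and 18.3% lower in the CARM1 knockout, and 22.3% higher and 23.5% lower in the NFIB mutant. The 2 comparisons share the TKO libraries and are not independent of each other. The same count of 4 was found without CARM1 knockout replicate 3, with differences of 4.90 for Pdgfra, 6.50 for Pdgfrb, 3.75 for Pdgfc and 8.26 for Pdgfd in the CARM1 knockout.

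**Figure D1:**
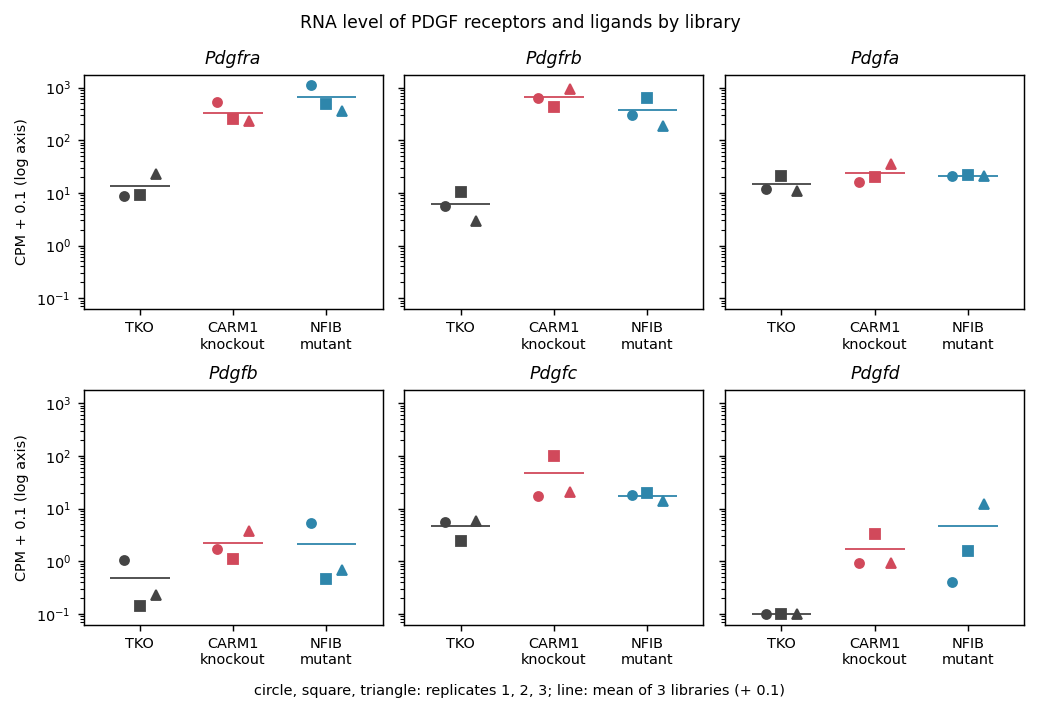
RNA level of the 6 PDGF genes in each library, in CPM plus 0.1 on a log axis. Circles, squares and triangles are replicates 1, 2 and 3 of each genotype, and lines are the means of 3 libraries. For Pdgfra, Pdgfrb, Pdgfc and Pdgfd all 6 mutant libraries sit above every TKO library, while Pdgfa and Pdgfb overlap between genotypes. The share of all genes that separate in this way was not counted.

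Pdgfa, the ligand of the alpha receptor made by many epithelia, is gene ENSMUSG00000025856 at chr5:138976014-138997370 on the minus strand. It stood at 11.8, 21.1 and 10.9 CPM in TKO, at 15.97, 20.03 and 34.7 CPM in the CARM1 knockout and at 20.6, 22.2 and 20.4 CPM in the NFIB mutant. TKO replicate 2 lay among the mutant libraries, and the groups overlapped. The log2 differences of 0.69 (SE 0.37, edgeR adjusted p = 0.168) and 0.53 (SE 0.37, edgeR adjusted p = 0.262) were not called. Without TKO replicate 2 they were 1.06 (edgeR adjusted p = 0.0736) and 0.90 (edgeR adjusted p = 0.0945) and passed the threshold. The absence of a call for Pdgfa thus depended on that library.

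Pdgfb, the ligand that binds both receptors, was near the detection floor. It is gene ENSMUSG00000000489 at chr15:79995874-80014977 on the minus strand. Libraries held 0.96, 0.04 and 0.13 CPM in TKO, 1.62, 0.99 and 3.70 CPM in the CARM1 knockout and 5.28, 0.37 and 0.57 CPM in the NFIB mutant. The TKO values stood for 20, 1 and 3 counts, and 4 of 6 mutant libraries lay above all of them. The log2 differences of 2.46 (SE 1.37, edgeR adjusted p = 0.187) and 2.44 (SE 1.37, edgeR adjusted p = 0.177) were not called. Single libraries moved these values widely. Without TKO replicate 1 they were 4.48 (edgeR adjusted p = 0.078) and 4.45 (edgeR adjusted p = 0.0675) and were called, without NFIB mutant replicate 1 the second was 0.33, and without CARM1 knockout replicate 3 the first was 1.83.

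Pdgfc, a ligand with a CUB domain that acts on the alpha receptor, is gene ENSMUSG00000028019 at chr3:81036416-81214040 on the plus strand. It was measured at 5.56, 2.31 and 5.84 CPM in TKO, at 17.6, 102 and 20.4 CPM in the CARM1 knockout and at 18.5, 19.6 and 14.02 CPM in the NFIB mutant. The groups did not overlap, and CARM1 knockout replicate 2 was far above the other mutant libraries. Pdgfc rose by 3.35 on the log2 scale in the CARM1 knockout (SE 0.75, 10.2-fold, edgeR adjusted p = 0.0131) and by 1.92 in the NFIB mutant (SE 0.71, 3.79-fold, edgeR adjusted p = 0.0604). Without CARM1 knockout replicate 2 the first was 2.06 (edgeR adjusted p = 0.0211). The call in the NFIB mutant was lost without TKO replicate 1, TKO replicate 2, NFIB mutant replicate 1 or NFIB mutant replicate 2, at edgeR adjusted p = 0.109, 0.156, 0.109 and 0.125.

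Pdgfd, the CUB-domain ligand of the beta receptor, was at 0 counts in all 3 TKO libraries and present in all 6 mutant libraries. It is gene ENSMUSG00000032006 at chr9:6168584-6378850 on the plus strand. The CARM1 knockout libraries held 12, 56 and 15 counts, which are 0.81, 3.26 and 0.84 CPM. The NFIB mutant libraries held 5, 24 and 189 counts, or 0.30, 1.48 and 11.99 CPM. Against a floor of 3 counts in each TKO library the mean of the CARM1 knockout was at least 12.1-fold higher, and the mean of the NFIB mutant at least 33.8-fold higher. The highest library of each group set these bounds, which were 6.08 without CARM1 knockout replicate 2 and 6.55 without NFIB mutant replicate 3. The test called both differences (edgeR adjusted p = 0.0333 and 0.0182), with fitted log2 values of 7.91 (SE 2.11) and 9.39 (SE 2.17) that depend on the prior count. At this depth the floor covers counting error only.

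Set side by side per exon length, the order of the 6 genes differed between genotypes. In RPKM, which is CPM divided by the exon length in kilobases, the TKO medians were 3.77 for Pdgfa, 1.09 for Pdgfc, 0.99 for Pdgfrb, 0.90 for Pdgfra, 0.03 for Pdgfb and 0 for Pdgfd. Pdgfa lay above the next gene with no overlap of the 3 libraries, whereas Pdgfc, Pdgfrb and Pdgfra overlapped. In the CARM1 knockout the medians were 117 for Pdgfrb, 24.8 for Pdgfra, 6.42 for Pdgfa, 4.001 for Pdgfc, 0.39 for Pdgfb and 0.27 for Pdgfd, and only the pairs Pdgfa with Pdgfc and Pdgfb with Pdgfd overlapped among neighbours. In the NFIB mutant they were 55.5 for Pdgfrb and 48.3 for Pdgfra, which overlapped, then 6.62 for Pdgfa, 3.63 for Pdgfc, 0.47 for Pdgfd and 0.14 for Pdgfb, of which the last 3 overlapped as neighbours. Pdgfa was thus the highest of the 6 in TKO and ranked below both receptors in every mutant group.

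The summed levels of the receptors and of the ligands moved unequally. The 2 receptors together stood at 1.85 to 2.77 RPKM in TKO and at 71.1 to 191 RPKM in the mutant libraries. The 4 ligands together stood at 4.67 to 7.23 RPKM in TKO and at 9.23 to 27.7 RPKM in the mutants. Neither sum overlapped between TKO and the mutants. Pdgfa made up 74.0% to 93.6% of the ligand sum in TKO and 23.2% to 68.3% in the mutants. The ratio of Pdgfrb to Pdgfra was 1.16, 2.07 and 0.23 in the TKO libraries, 2.23, 3.17 and 7.37 in the CARM1 knockout libraries and 0.50, 2.38 and 0.95 in the NFIB mutant libraries, so the groups overlapped on this ratio.

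No PDGF gene was called between the 2 mutants. The log2 difference of the CARM1 knockout from the NFIB mutant was -0.96 for Pdgfra (SE 0.57, edgeR adjusted p = 0.651) and 0.83 for Pdgfrb (SE 0.57, edgeR adjusted p = 0.710). For the ligands it was 0.16 (SE 0.36) for Pdgfa, 0.02 (SE 1.28) for Pdgfb, 1.42 (SE 0.70) for Pdgfc and -1.48 (SE 1.37) for Pdgfd, with edgeR adjusted p between 0.590 and 0.9996. Across all genes this comparison called 0%, although 1415 of 15514 had an unadjusted p under 0.05 in edgeR, its smallest adjusted p was 0.115, and DESeq2 called 458 genes, of which 0 were PDGF genes. The mean of Pdgfra was higher in the NFIB mutant and that of Pdgfrb in the CARM1 knockout, and the libraries of the 2 mutants overlapped for both genes. Without CARM1 knockout replicate 2 the Pdgfc difference was 0.13, and without NFIB mutant replicate 1 the Pdgfra difference was -0.35.

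Peaks near the PDGF genes were called higher in the mutants more often than lower. Peaks were tested in the same way and called where the adjusted p was below 0.1 and the log2 difference was 0.5 or more in size. In the CARM1 knockout 50 of the 84 peaks (59.5%) were called higher and 10 (11.9%) lower, against 38.7% higher and 32.4% lower of all 111116 peaks tested. In the NFIB mutant 47 (56.0%) were called higher and 10 (11.9%) lower, against 39.3% and 34% of all peaks. Of these, 43 were higher and 9 lower in both mutants and 0 moved in opposite directions, in comparisons that share the TKO libraries. The median log2 difference of the 84 peaks was 1.88 and 1.40, against 0.22 and 0.22 over all peaks tested. No peak was called between the mutants, where 0% of all peaks were called by edgeR at a smallest adjusted p of 0.124 while 6814 had an unadjusted p under 0.05 and DESeq2 called 1077.

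These shares depended on scaling. Library totals alone moved the median of all peaks by 0.57 in each mutant, and 65.9% and 64.3% of all calls were then higher, against 54.4% and 53.6% with the scaling used here. Near the PDGF genes 59 peaks were then higher and 9 lower in the CARM1 knockout, and 56 and 9 in the NFIB mutant. Of all 111116 peaks tested, 52589 were then higher and 27241 lower in the CARM1 knockout, and 52694 and 29255 in the NFIB mutant. Many of the 84 peaks lay closer to the start of another gene. Of the 27 peaks whose nearest annotated start belonged to a PDGF gene, 13 (48.1%) were higher and 3 (11.1%) lower in the CARM1 knockout. In the NFIB mutant 12 (44.4%) were higher and 2 (7.41%) lower. These shares of higher peaks lay nearer to the 38.7% and 39.3% of all peaks tested than did those of all 84 peaks. The shares of lower peaks did not, and stayed below the 32.4% and 34% of all peaks tested, as did the 11.9% of all 84.

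The counts by gene were as follows, and differences between genes or between positions were not tested. Of the 21 peaks at Pdgfrb, 18 were higher and 1 lower in the CARM1 knockout, and 14 and 1 in the NFIB mutant. Of the 18 peaks at Pdgfc, 14 were higher and 1 lower, and 13 and 1. Of the 6 at Pdgfd, 5 were higher and 0 lower in each mutant. Few of these peaks lay nearest to a start of the named gene, 6 at Pdgfrb, 1 at Pdgfc and 1 at Pdgfd. Of those, 5, 0 and 1 were higher in the CARM1 knockout and 4, 0 and 1 in the NFIB mutant. Pdgfra, whose RNA rose 25.02-fold and 48.8-fold, had 10 peaks, of which 4 were higher and 1 lower in the CARM1 knockout and 3 and 2 in the NFIB mutant. The 12 peaks at Pdgfb gave 5 and 1, and 6 and 1. The 17 peaks at Pdgfa were divided between rises and falls, with 4 higher and 6 lower in the CARM1 knockout and 6 and 5 in the NFIB mutant. By position, 18 of 26 intron peaks (69.2%) were higher in the CARM1 knockout and 17 (65.4%) in the NFIB mutant. Of the 8 promoter peaks, defined as peaks with their middle within 1000 bp of an annotated start of the gene, 2 (25%) were called higher in each. Of all peaks tested 38.7% and 39.3% were higher, and shares of all peaks by position were not counted.

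**Figure D2:**
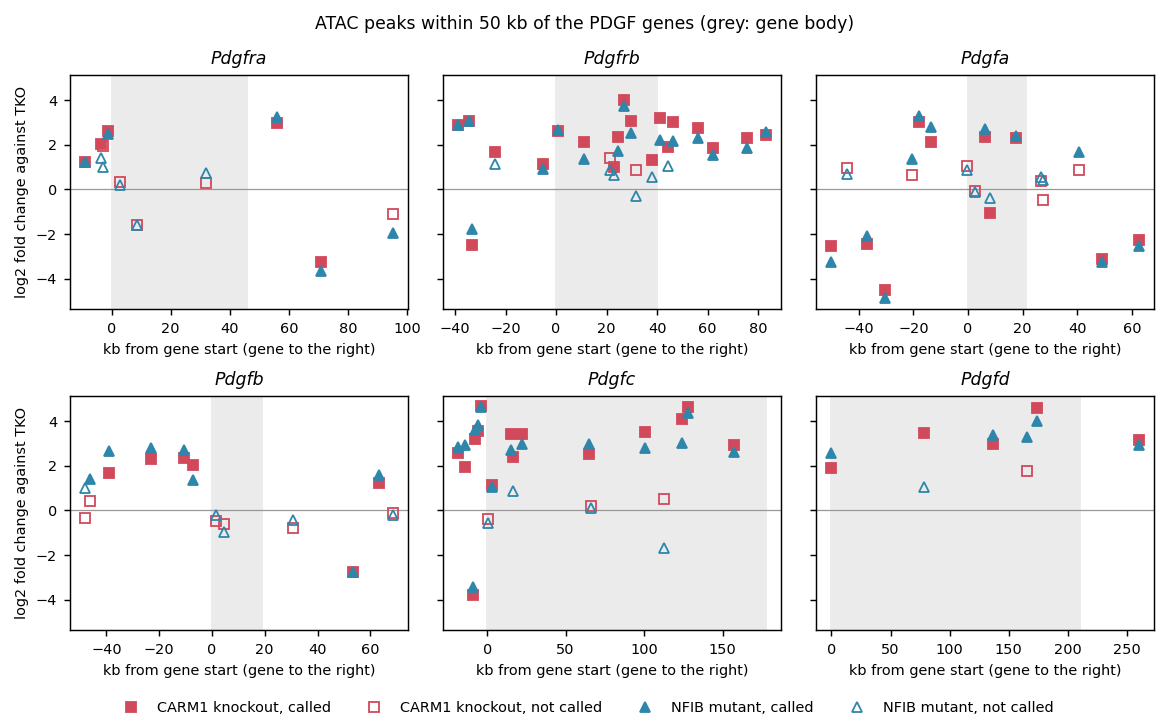
Log2 fold change against TKO of each of the 84 peaks (vertical axis) against the distance of its middle from the gene start in kb (horizontal axis, transcription to the right). Squares are the CARM1 knockout and triangles the NFIB mutant, filled where called, and grey marks the gene body. Called rises crowd the windows of Pdgfrb, Pdgfc and Pdgfd, where most peaks lie nearer to the start of another gene. Called falls reach -4.50 and -4.88 upstream of Pdgfa.

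At Pdgfrb the peak over the gene start rose. This promoter peak had its middle 894 bp inside the gene and stood at 6.66, 8.04 and 8.996 CPM in TKO, 48.7, 46.9 and 51.6 CPM in the CARM1 knockout and 32.7, 72.7 and 44.4 CPM in the NFIB mutant. All 6 mutant libraries lay above every TKO library. The share of all peaks that separate in this way was not counted, and 38.7% and 39.3% of all peaks tested were called higher. The log2 differences were 2.64 (SE 0.27, edgeR adjusted p = 5.0e-05) and 2.66 (SE 0.27, edgeR adjusted p = 4.1e-05). The largest rise was in an intron, 26757 bp from the start, where TKO held 1.27 to 2.87 CPM and the mutants 19.1 to 42.0 CPM, with log2 differences of 3.99 and 3.73. The 1 fall lay 33132 bp upstream, inside the neighbouring gene Slc6a7, with differences of -2.48 and -1.79.

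At Pdgfra a broad peak was already open in TKO, and a weaker one beside it rose. The broad peak, centred 2860 bp inside the gene within 1000 bp of another annotated start, held 30.9, 51.6 and 42.0 CPM in TKO, 49.7, 54.1 and 52.0 CPM in the CARM1 knockout and 42.5, 57.2 and 43.8 CPM in the NFIB mutant. The log2 differences of 0.32 (SE 0.19, edgeR adjusted p = 0.158) and 0.20 (SE 0.19, edgeR adjusted p = 0.357) were not called. Other scalings called both, at 0.75 and 0.68 (edgeR adjusted p = 0.00229 and 0.00342) when scaled on start-site peaks of evenly expressed genes, 0.70 and 0.58 with library totals without the largest peaks and 0.91 and 0.78 with library totals alone. Without TKO replicate 2 the first was 0.51 and was called. The peak that covers the gene start, chr5:75149761-75152634, holds the Pdgfra sequence printed above and was chosen after its values were seen. It stood at 2.17, 3.25 and 0.93 CPM in TKO, at 19.8, 14.3 and 5.61 CPM in the CARM1 knockout and at 10.2, 11.7 and 13.9 CPM in the NFIB mutant, with no overlap of TKO and mutants. It rose by 2.64 (SE 0.54, edgeR adjusted p = 0.00179) and 2.49 (SE 0.53, edgeR adjusted p = 0.0022) on the log2 scale. A further start, 8600 bp inside the gene, was high in TKO replicate 3 alone, at 14.4 CPM against 1.08 and 1.58 CPM in the other TKO libraries and 0.96 to 3.05 CPM in the mutants. Its differences of -1.62 and -1.58 were not called, and without that library they were 0.48 and 0.51. Both were called lower with RLE size factors (-1.78 and -1.73), with DESeq2 (-1.78 and -1.73), without TKO replicate 1 (-2.11 and -2.08) and without TKO replicate 2 (-2.06 and -2.03), all of which keep that library.

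Beyond the Pdgfra gene, the largest rise lay 55883 bp from the start, at 0.15 to 0.63 CPM in TKO and 2.13 to 4.65 CPM in the mutants, with log2 differences of 2.95 (SE 0.57) and 3.24 (SE 0.58). The largest fall lay 70810 bp from the start, with differences of -3.23 and -3.67. TKO replicate 2 held 5.10 CPM of the latter peak and the other TKO libraries 1.15 and 1.35 CPM. Without that library the differences were -2.21 and -2.65, and without CARM1 knockout replicate 1 the first was -3.96.

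The promoters of Pdgfa, Pdgfb and Pdgfc were open in TKO and were not called in either mutant. The Pdgfa peak 2572 bp inside the gene, which holds both Pdgfa promoters of the RefSeq table, stood at 43.2 to 50.5 CPM in TKO and at 32.6 to 53.6 CPM in the mutants. Its log2 differences of -0.08 and -0.12 (edgeR adjusted p = 0.747 and 0.615) changed sign with other scalings. The Pdgfb peak 1458 bp inside the gene held 8.78 to 12.2 CPM in TKO and 4.55 to 13.4 CPM in the mutants (-0.46 and -0.22, edgeR adjusted p = 0.370 and 0.660), and its sign changed with scaling too. The Pdgfc peak 537 bp inside the gene held 19.0 to 29.3 CPM in TKO and 12.2 to 26.0 CPM in the mutants (-0.40 and -0.56, edgeR adjusted p = 0.245 and 0.106). With RLE size factors the Pdgfc peak was called lower in both mutants (-0.58 and -0.71), in genotypes where Pdgfc RNA was higher. It was also called lower in the CARM1 knockout without CARM1 knockout replicate 2 (-0.79). In the NFIB mutant it was called lower with DESeq2 (-0.71), with the compared genotypes alone (-0.56), without TKO replicate 2 (-0.69) and without CARM1 knockout replicate 1 or 2 (-0.56 each). A second Pdgfa peak, centred 490 bp upstream, held 6.28, 1.89 and 1.56 CPM in TKO and 4.40 to 10.1 CPM in the mutants, with differences of 1.06 and 0.85 (edgeR adjusted p = 0.111 and 0.187). Both were called with other scalings, at 1.47 and 1.35 (edgeR adjusted p = 0.0420 and 0.0552) when scaled on start-site peaks of evenly expressed genes, 1.46 and 1.26 with totals without the largest peaks and 1.66 and 1.44 with library totals alone. They were also called without TKO replicate 1 (1.97 and 1.76), and the first alone where every library had to hold 10 counts or more (1.22) and without CARM1 knockout replicate 2 (1.30).

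At Pdgfd the promoter peak was higher in both mutants, as the RNA was. Its middle was 1 bp from the gene start and it held 0.22, 0.59 and 0.72 CPM in TKO, 1.94, 2.74 and 0.99 CPM in the CARM1 knockout and 1.49, 3.39 and 4.32 CPM in the NFIB mutant. All 6 mutant libraries lay above every TKO library, although the peak was weak. The log2 differences were 1.90 (SE 0.62, edgeR adjusted p = 0.0201) and 2.595 (SE 0.63, edgeR adjusted p = 0.00446). An intron peak 174379 bp from the start, the largest rise at this gene, held 4, 2 and 0 counts in TKO and 0.57 to 2.36 CPM in the mutants, with fitted differences of 4.595 and 4.02.

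**Figure D3:**
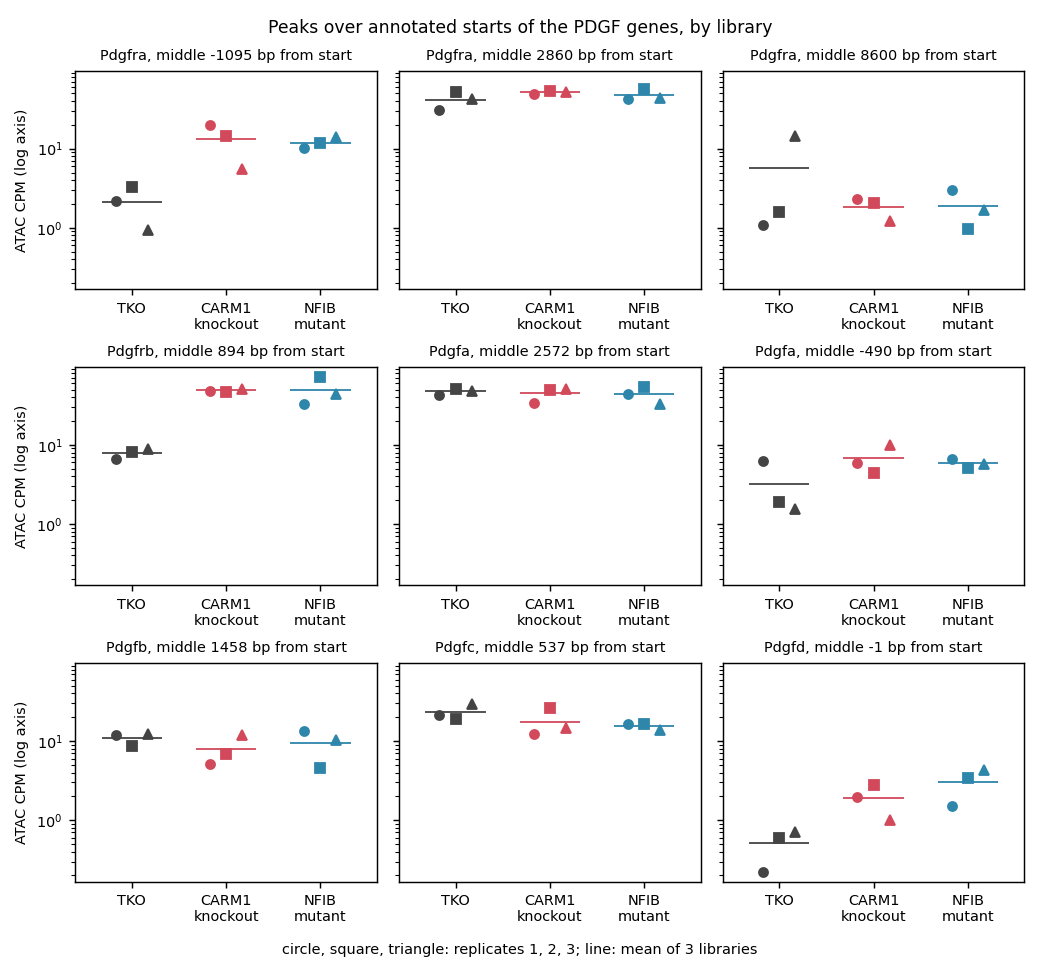
ATAC CPM on a log axis of the 8 promoter peaks and of the peak over the Pdgfra start, by library. Circles, squares and triangles are replicates 1, 2 and 3, and lines are means of 3 libraries. The mutants sit above TKO at the Pdgfra start, at Pdgfrb and at Pdgfd, and overlap with TKO in the other panels.

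Away from the promoters, the regions of largest change at the ligand genes were chosen for that change among peaks called in both mutants. Their separation of TKO from the mutant libraries and their small adjusted p follow in part from that choice. A peak 17926 bp upstream of Pdgfa stood at 1.27, 0.87 and 1.69 CPM in TKO and at 8.76 to 16.3 CPM in the mutants (3.01 and 3.27, SE 0.39 and 0.40). A peak 30478 bp upstream, inside the neighbouring gene Prkar1b, went the other way, from 12.9, 26.7 and 8.19 CPM in TKO to 0.37 to 0.92 CPM in the mutants. Its log2 differences were -4.50 (SE 0.55, edgeR adjusted p = 0.000118) and -4.88 (SE 0.56, edgeR adjusted p = 7.5e-05), or -3.90 and -4.29 without TKO replicate 2. A peak 4264 bp upstream of Pdgfc held 6, 6 and 0 counts in TKO and 1.91 to 4.22 CPM in the mutants (4.67 and 4.63, SE 0.74 each). Another, 9132 bp upstream of Pdgfc, fell, with differences of -3.79 and -3.42. At Pdgfb the largest fall lay 53306 bp from the start inside Cbx7 (-2.77 and -2.76). The largest rise, 22944 bp upstream of Pdgfb, held 4, 4 and 9 counts in TKO and overlapped, since 0.36 CPM in CARM1 knockout replicate 1 and in NFIB mutant replicate 2 lay below the 0.38 CPM of TKO replicate 3. It had differences of 2.32 (edgeR adjusted p = 0.045) and 2.79 (edgeR adjusted p = 0.0204). This call was lost in the CARM1 knockout without TKO replicate 1 (2.06), TKO replicate 2 (2.05) or CARM1 knockout replicate 3 (1.51), and in the NFIB mutant without NFIB mutant replicate 3 (1.64).

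The middle 300 bases of 4 of these peaks are shown, the largest rise and the largest fall at Pdgfra and at Pdgfa, because both genes had peaks that moved in opposite directions. They are read from the plus strand of GRCm38.p6, and capitals mark matches to 4 short motifs searched on both strands, TGANTCA (bound by AP-1), GGAATG (TEAD), CAGCTG (an E-box) and TTGGCA (1 arm of an NFI site).
Pdgfra, 55883 bp from the start, higher, GRCm38.p6 chr5:75208026-75208325, plus strand: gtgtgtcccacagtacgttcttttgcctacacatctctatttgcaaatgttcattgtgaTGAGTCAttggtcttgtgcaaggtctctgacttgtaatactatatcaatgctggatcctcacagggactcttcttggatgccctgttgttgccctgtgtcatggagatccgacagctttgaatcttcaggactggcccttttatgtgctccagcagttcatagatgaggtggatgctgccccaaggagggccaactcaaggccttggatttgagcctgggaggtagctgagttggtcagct
Pdgfra, 70810 bp from the start, lower, GRCm38.p6 chr5:75222953-75223252, plus strand: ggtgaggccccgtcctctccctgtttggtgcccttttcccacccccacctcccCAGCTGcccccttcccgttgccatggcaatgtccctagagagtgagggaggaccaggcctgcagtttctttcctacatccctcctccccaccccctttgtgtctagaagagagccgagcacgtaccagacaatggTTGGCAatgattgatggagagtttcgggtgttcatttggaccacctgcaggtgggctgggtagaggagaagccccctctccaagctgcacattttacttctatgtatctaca
Pdgfa, 17926 bp upstream, higher, GRCm38.p6 chr5:139015147-139015446, plus strand: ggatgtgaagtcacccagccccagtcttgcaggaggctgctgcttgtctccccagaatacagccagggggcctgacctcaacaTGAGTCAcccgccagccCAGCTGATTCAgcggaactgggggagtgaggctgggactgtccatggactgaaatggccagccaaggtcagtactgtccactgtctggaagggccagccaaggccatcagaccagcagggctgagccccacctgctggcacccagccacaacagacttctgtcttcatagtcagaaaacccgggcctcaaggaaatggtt
Pdgfa, 30478 bp upstream, lower, GRCm38.p6 chr5:139027699-139027998, plus strand: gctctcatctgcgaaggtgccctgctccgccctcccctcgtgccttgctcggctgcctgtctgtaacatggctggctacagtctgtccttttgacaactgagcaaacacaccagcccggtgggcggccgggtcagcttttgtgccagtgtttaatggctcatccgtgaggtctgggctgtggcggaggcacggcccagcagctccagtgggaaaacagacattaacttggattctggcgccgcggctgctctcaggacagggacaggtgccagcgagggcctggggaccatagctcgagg

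The Pdgfra peak that rose held 1 AP-1 match at bases 60 to 66, and the one that fell held an E-box match at bases 54 to 59 and an NFI arm at bases 189 to 194. The Pdgfa peak that rose held AP-1 matches at bases 84 to 90 and 105 to 111, and the latter overlapped an E-box match at bases 101 to 106. The Pdgfa peak that fell held none of the motifs. Over the middle 300 bases of all 84 peaks, AP-1 matches were in 20 (23.8%), against 23.8% of all peaks tested. Among the 43 peaks higher in both mutants they were in 13 (30.2%), and among the 9 lower in both in 0. TEAD matches were in 13 of the 84 (15.5%), 12 of the 43 (27.9%) and 0 of the 9, against 19.1% of all peaks. The E-box was in 19 of the 84 (22.6%), 9 of the 43 (20.9%) and 3 of the 9, against 22.7%. The NFI arm TTGGCA was in 17 of the 84 (20.2%), 7 of the 43 (16.3%) and 4 of the 9, against 21.3%. Shares among all peaks of the series that were higher, or lower, in both mutants were not counted. The full NFI site, TTGGC and GCCAA with 5 bases between, was in 0 of the 84 and in 0.0990% of all peaks. In the printed promoters no motif was matched, and the shares over all promoters were 7.81% for AP-1, 14.7% for TEAD, 16.3% for the E-box, 14.1% for the NFI arm and 0.0365% for the full site. A match is a run of letters in this window and not a measured binding site.

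Genes around the receptors were read from lists by role. Of 56 pathway genes tested, 19 were called higher and 5 lower in the CARM1 knockout and 19 higher and 2 lower in the NFIB mutant, with medians of 0.51 and 0.55 against -0.03 and -0.05 over all genes. Over all genes tested 20.5% were higher and 18.3% lower in the CARM1 knockout and 22.3% and 23.5% in the NFIB mutant, which are the shares to set beside the counts of each list, and no list was tested against them. The split depended on scaling, and with library totals alone, which moved the median of all genes by -0.27 and -0.32, it was 16 higher and 9 lower in each. Of all 15514 genes tested, 2511 were then higher and 3848 lower in the CARM1 knockout, and 2691 and 4809 in the NFIB mutant. All 3 ligand binding partners were higher in both mutants. Sparc, a secreted matrix protein that binds PDGF-B, went from 10.2 to 24.7 CPM in TKO to 1244 to 3072 CPM in the mutants, with log2 differences of 7.11 (SE 0.49) and 6.55 (SE 0.48). Of 6 genes that process the ligands, 2 were higher and 1 lower in the CARM1 knockout and 3 higher in the NFIB mutant. Plau, the urokinase that can cut the CUB domain from PDGF-D, went from 0.66 to 5.80 CPM to 32.9 to 103 CPM (4.79 and 4.72, SE 0.93 and 0.92).

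Of the 28 effectors that carry the signal, 5 were higher and 3 lower in the CARM1 knockout and 5 higher and 2 lower in the NFIB mutant, with medians of 0.22 and 0.32. Most genes were not called over the whole table either, where 20.5% were higher and 18.3% lower, and 22.3% and 23.5%. Shc1, an adaptor that links receptors to RAS, rose by 1.64 (SE 0.24) and 2.36 (SE 0.25). Of 11 negative regulators, 2 were higher and 1 lower in the CARM1 knockout and 2 higher in the NFIB mutant. Spry2, a feedback inhibitor of receptor signalling, went from 6.20 to 8.41 CPM to 13.4 to 83.1 CPM (2.39 and 3.03). Of 8 early response targets, which many growth factors and handling of cells also induce, 7 were higher in the CARM1 knockout and 6 in the NFIB mutant. Ier3, an immediate early gene, went from 0.31 to 6.43 CPM to 44.2 to 207 CPM (5.28 and 5.61). No gene in these lists was called lower in both mutants.

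Between the mutants no pathway gene was called by edgeR, and DESeq2 called 1 of them, Cbl, which encodes a ubiquitin ligase that marks activated receptors for breakdown. Cbl stood at 46.0, 51.1 and 32.5 CPM in TKO, at 17.2, 18.7 and 19.2 CPM in the CARM1 knockout and at 32.5, 37.2 and 35.0 CPM in the NFIB mutant. The CARM1 knockout libraries lay below all others. The difference between the mutants was -0.93 on the log2 scale, with an adjusted p of 0.460 in edgeR and 0.00288 in DESeq2. Cbl was named after its values were seen.

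The nearest relatives of the PDGF receptors and ligands also varied. Of the 6 relatives of the receptors, 5 were tested (Flt3 was not), and 2 were higher in the CARM1 knockout and 3 higher and 1 lower in the NFIB mutant. Csf1r, the macrophage colony-stimulating factor receptor and the neighbour of Pdgfrb on the chromosome, stood at 2.54, 0.04 and 0.18 CPM in TKO, 60.7, 8.33 and 223 CPM in the CARM1 knockout and 20.03, 121 and 11.1 CPM in the NFIB mutant (6.73 and 5.79, edgeR adjusted p = 0.0288 and 0.0356). Of the 5 relatives of the ligands, 2 were higher in each mutant. Vegfd, a ligand of lymphatic vessel receptors, went from 0.35 to 0.84 CPM to 10.8 to 119 CPM (5.81 and 6.86).

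**Figure D4:**
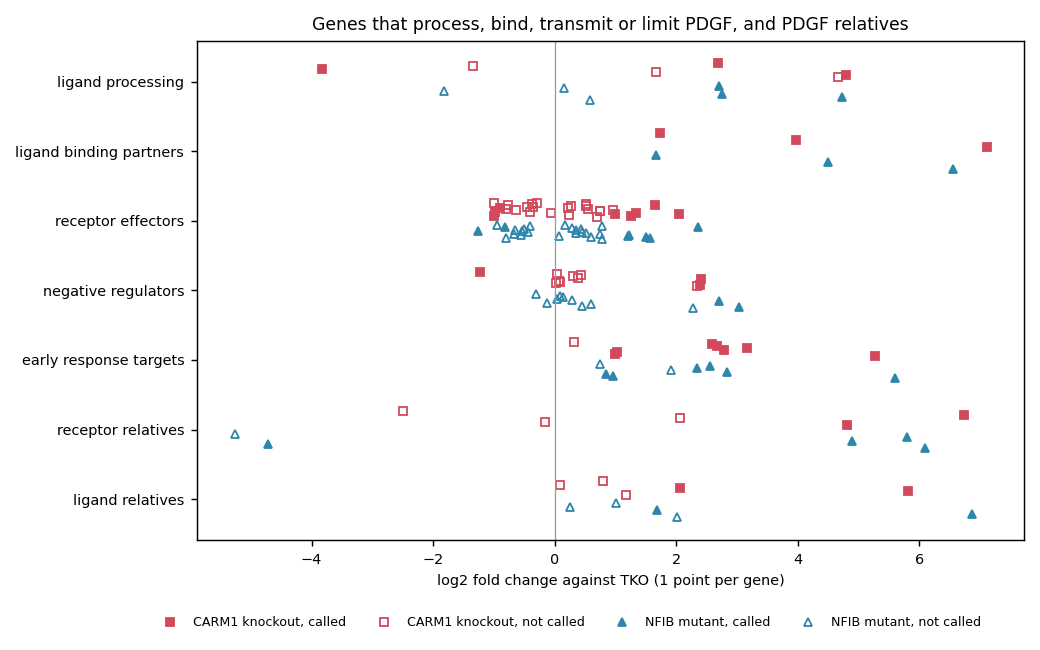
Log2 fold change against TKO (horizontal axis) of each tested gene of the pathway and relatives lists (rows). Squares are the CARM1 knockout and triangles the NFIB mutant, filled where called. Early response targets and binding partners lie to the right of 0, while the 28 effectors lie on both sides of it.

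Of the cells that usually carry PDGF receptors, fibroblasts and smooth muscle cells had marker sums that rose with the receptors. The pericyte markers were mixed. The 8 fibroblast markers summed to 114 to 176 CPM in TKO, to 15506 to 26637 CPM in the CARM1 knockout and to 9902 to 16501 CPM in the NFIB mutant, and 7 and 6 of the 8 were called higher. Col1a1, the main fibrillar collagen chain, went from 0.29 to 3.84 CPM to 2368 to 10039 CPM. The 6 smooth muscle markers summed to 3.98 to 9.83 CPM in TKO, 528 to 1966 CPM in the CARM1 knockout and 125 to 595 CPM in the NFIB mutant, with 5 and 4 of 6 called higher. The pericyte sums overlapped, at 13.3 to 68.0, 24.97 to 110 and 24.9 to 104 CPM. Of the 6 pericyte markers, 1 and 2 were called higher, and 1 was called lower in the NFIB mutant. Their median log2 differences were 1.01 and 3.04, against -0.03 and -0.05 over all genes tested. Rgs5, a defining pericyte gene, stayed at or below 3.32 CPM in all 9 libraries. The part of these cell types in the rise of the receptors was not tested.

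Other cell types were less uniform across the mutant libraries. The 8 leukocyte markers summed to 3.45 to 51.8 CPM in TKO, 173 to 2444 CPM in the CARM1 knockout and 17.2 to 465 CPM in the NFIB mutant, with 6 and 2 of 6 tested called higher and with Cd3e at 3 counts or fewer everywhere. The 7 endothelial markers summed to 1.68 to 19.3, 2.62 to 63.2 and 1.88 to 11.7 CPM, and Tie1, Emcn and Cldn5 were at 3 counts or fewer in all libraries. Platelet and megakaryocyte markers, 5 in all, summed to 2.71 to 4.22, 10.9 to 12.8 and 8.86 to 216 CPM. The 8 lung epithelial markers summed to 11.7 to 36.7, 2.64 to 421 and 2.54 to 2214 CPM, and the 4 mesothelial markers to 0.40 to 14.7, 5.55 to 94.5 and 44.6 to 93.6 CPM. Of the 10 neuroendocrine markers, 9 were called lower in the NFIB mutant and 1 in the CARM1 knockout, whose replicate 3 held 1803 CPM of them together with 922 CPM of Pdgfrb. The part of these cell types in the PDGF values was not tested.

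**Figure D5:**
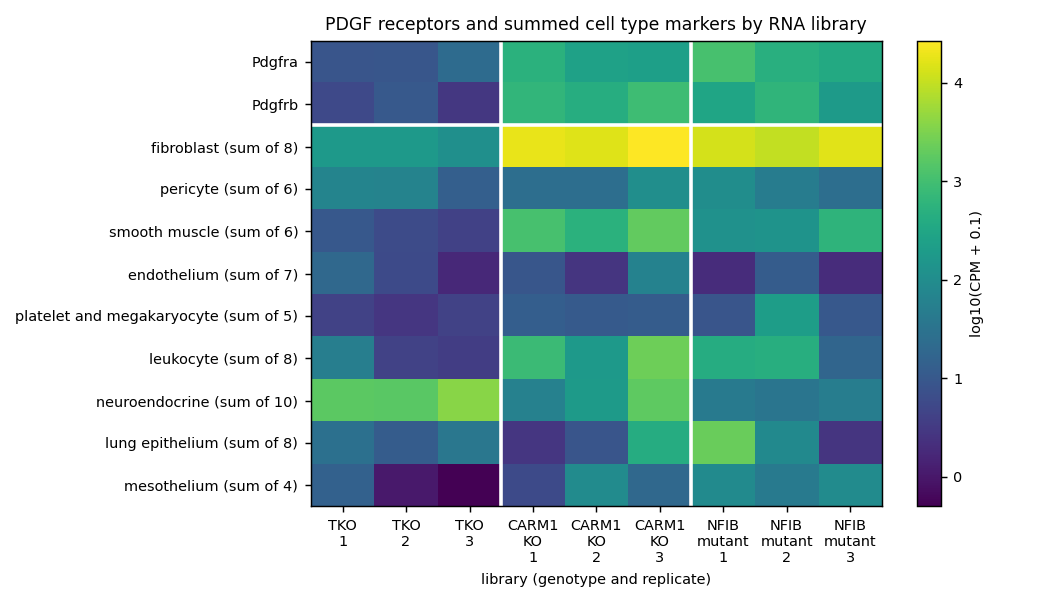
Log10 of CPM plus 0.1 (colour) of both PDGF receptors and of summed marker genes (rows) in each RNA library (columns). The fibroblast sum is at 114 to 176 CPM in TKO and at 9902 to 26637 CPM in the mutants, and the neuroendocrine sum is low in all mutant libraries but CARM1 knockout replicate 3, at 1803 CPM.

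Over the 9 libraries Pdgfra and Pdgfrb followed each other with a Pearson r of 0.90 on log2 CPM, and Pdgfa followed Pdgfra least, at 0.50. These 9 points share the contrast between TKO and the mutants, so any gene with that contrast correlates, and the values are descriptions. Among 9750 genes compared, the closest to Pdgfra were Lrrk2, Mmp19 and Man2a1, at r of 0.995, 0.99 and 0.99. Closest to Pdgfrb were Lrrc32, a docking protein of latent TGF-beta, at 0.996, and Fam198b and Fbn1, the latter a microfibril protein, at 0.98 each. The ligands had other genes nearest to them. Among these were Uqcc3, mt-Rnr1 and Krcc1 for Pdgfa (0.97, 0.95 and 0.91), Vegfc and B4galnt1 for Pdgfb (0.89 and 0.88), Rnf4, Mdh2 and Crybg1 for Pdgfc (0.96, 0.95 and 0.95) and Sf3b4, Snapc2 and Ube2m for Pdgfd (0.99, 0.98 and 0.98).

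Reads of overlapping genes could not be told apart, since the strand setting of the counting is not given in the sources used here. The gene 6330403L08Rik, which is antisense to Pdgfa, held 5.80 to 21.5 CPM and was not called. Gm42802 and Gm42803, on the strand opposite Pdgfra, Gm16000, antisense to Pdgfc, and Ddi1, which lies within Pdgfd, held 0 to 3 counts in every library.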

How the data were processed

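RNA-seq and ATAC-seq were run on 9 libraries each, 3 per genotype. For RNA the authors used Trim Galore, then HISAT2 on mm10, and made gene counts with htseq-count. They mapped ATAC reads with Bowtie2, removed duplicates with Picard, called peaks with MACS2 and filtered regions of putative copy number change. ATAC reads were counted in 1 merged peak set, with featureCounts by the header of the deposited table. Both deposited tables hold raw counts. The 5 summary lines, 11.6% to 21.2% of reads, were left out.

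Tests used edgeR 4.0.16 (R 4.3.3) robust quasi-likelihood fits with TMM scaling over all 9 libraries of an assay, Benjamini-Hochberg adjustment over all features passing filterByExpr, and 1 model for the 3 comparisons, without a replicate block. CPM values divide counts by the TMM-adjusted library size, so levels and log2 differences share 1 scaling. The SE beside a log2 difference was computed as its size divided by the square root of the quasi-likelihood F statistic. Exact permutation of 3 against 3 libraries cannot go below p = 0.1 and was not used. Alternatives were DESeq2 1.42.0, other scalings and filters, the compared genotypes alone, a replicate block and leaving out each library. Gene positions follow GENCODE M21 (45143 of 46078 genes matched). Levels per exon length used the union of exons. Named genes were the PDGF genes, Csf1r, the called gene with the largest mean rise and fall in each list, and the 3 most correlated genes of each PDGF gene, with some items not reported here. Named peaks were promoter peaks and the largest rise and fall of each gene. The genes, lists and rules were chosen with earlier results of these data known.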

Additional observations from a re-analysis of the deposited data

How the results depend on the processing

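The 4 PDGF genes called in each mutant ranged from 4 to 5 in the CARM1 knockout and from 3 to 4 in the NFIB mutant when single libraries were left out. Called peaks ranged from 56 to 64 and from 53 to 62, and called pathway genes from 20 to 27 and from 17 to 25, while the CARM1 knockout and the NFIB mutant differed in 0 to 0 of them. These totals join both directions. With all libraries, 78984 and 81433 of all 111116 peaks tested were called. Of all 15514 genes tested, 6021 and 7099 were called. Where each library had to hold 10 counts or more, 36 of 52 PDGF peaks were called in each mutant, where fewer peaks were tested, and Pdgfb and Pdgfd were not tested. Of all 65496 peaks tested under that filter, 38831 and 40676 were called. Of the 27 peaks nearest to a PDGF start, 16 and 14 were called without that filter. DESeq2 called 1 pathway gene between the mutants.

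Some values without a call changed sign. For the Pdgfa peak at 2572 bp the CARM1 knockout value was 0.51 with library totals alone, 0.073 with the 10-count filter, 0.33 when scaled on start-site peaks of evenly expressed genes and 0.29 with totals without the largest peaks, and the NFIB mutant values were 0.44, 0.052, 0.36 and 0.26. For the Pdgfb peak at 1458 bp the CARM1 knockout value was 0.12 with library totals alone, and the NFIB mutant values were 0.32 with totals alone, 0.32 with start-site peaks and 0.17 without the largest peaks. The Pdgfc peak at 537 bp was 0.16 in the CARM1 knockout with library totals alone. Leaving out single libraries gave -2.11 to 0.48 and -2.10 to 0.51 at the Pdgfra peak at 8600 bp, -0.18 to 0.089 and -0.29 to 0.057 at the Pdgfa peak at 2572 bp, and -0.56 to 0.11 in the NFIB mutant at the Pdgfb peak at 1458 bp. Between the mutants it gave -0.21 to 0.37 for Pdgfa, -0.64 to 2.15 for Pdgfb and -2.47 to 0.88 for Pdgfd. The cause was not tested.

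Library totals alone gave 39.5% and 35.9% of RNA calls as higher, against 52.9% and 48.7%. Same-numbered libraries did not deviate together (correlations of -0.30 to 0.12 for RNA and -0.14 to 0.12 for ATAC), so the replicate block is given only here. With the replicate block 5 and 3 PDGF genes, 60 and 56 peaks and 22 and 20 pathway genes were called, and 0 between the mutants. The block called 5485 and 6508 of all 15514 genes tested and 76649 and 79380 of all 111116 peaks tested. It called Pdgfb in the CARM1 knockout (3.56, edgeR adjusted p = 0.0556) and lost Pdgfc in the NFIB mutant (1.79, edgeR adjusted p = 0.115), and it called the Pdgfa peak 490 bp upstream in the CARM1 knockout (1.21). Depth limits Pdgfb and Pdgfd, which held 0 to 20 counts in TKO, most.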
